A study of Mus musculus with 6 samples.

Results

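The 4 transcription factors of the MiT family (Mitf, Tfeb, Tfe3 and Tfec) and 6 genes known as their osteoclast-like or lysosomal targets (Gpnmb, Atp6v0d2, Acp5, Ctsk, Dcstamp and Ocstamp) were described in LPS-treated macrophages with and without knockdown of PGAM5, a phosphatase of the mitochondrial outer membrane. These 10 genes were taken by symbol from the 54532 genes of the deposited tables, and 8 of them passed the filter on low values (a mean of at least 1 FPKM over the 6 libraries) with which 10540 genes were tested. They were chosen because earlier results of the same comparison were known, so their own values are given as a description, with no p-value. RNA was measured by RNA-seq in iBMDMs, mouse bone marrow-derived macrophages immortalized with retroviruses carrying v-raf and v-myc. Control cells carried a control shRNA and PGAM5 KD cells an shRNA against Pgam5, both delivered by lentivirus, and all cells had received LPS at 100 ng/ml for 4 hours. There were 3 libraries per group and no library from untreated cells, so an induction by LPS cannot be read from these values. The cells are 1 immortalized line without osteoblasts or added RANKL in the labels, and in bulk RNA fewer cells of a type and less RNA per cell cannot be told apart.

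Between 18163464 and 24388917 fragments were recovered per library, so that for 1 kb of exon a single fragment counted for 0.0410 to 0.0551 FPKM (fragments per kilobase of exon, scaled to depth). Pgam5, on chr5:110259130-110269913 of GRCm38, had 17.1, 13.0 and 13.4 FPKM in control and 4.33, 5.75 and 4.53 FPKM in PGAM5 KD libraries. The groups did not overlap, with the lower values in the knockdown (log2 fold change -1.40, standard error 0.13, adjusted p = 0.000358 from limma). Of 9 macrophage markers, 7 were above 1 FPKM in all 6 libraries and Mertk was at 0 in all 6. The labels do not say whether replicates were separate cultures or infections, so the p-values measure only the spread between these libraries. Among the genes tested, 31.7% passed an adjusted p-value under 0.05, 16.8% higher and 14.9% lower in PGAM5 KD cells. After scaling to TPM, 12631 genes had a mean of at least 1 TPM, a looser filter because TPM values are larger than FPKM here. Of these genes, 1083 were higher and 2268 lower.

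MiT factors are basic helix-loop-helix leucine zipper proteins that bind E-box sequences as homodimers or as heterodimers with each other. Much of their control lies in where the protein is: phosphorylation by mTORC1 at the lysosome holds TFEB, TFE3 and MITF in the cytosol, and their dephosphorylation, for example by calcineurin, lets them enter the nucleus and activate genes of lysosomes and autophagy. In the osteoclast lineage, which shares its precursors with macrophages, MITF and TFE3 act with NFATC1 and PU.1 on genes for bone resorption and cell fusion. An mRNA level measures neither the location nor the activity of the proteins.

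The factors differed less between the groups than most of the targets. Of the 4 factors, Mitf alone was lower in every PGAM5 KD library than in every control library, while 4 of the 6 targets were, and Ctsk was higher in every PGAM5 KD library. Among all genes tested, 47.1% did not overlap between the groups, 22.9% with lower and 24.2% with higher values in PGAM5 KD cells, and since the genes were chosen from this comparison nothing is read from their count.

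**Figure D1:**
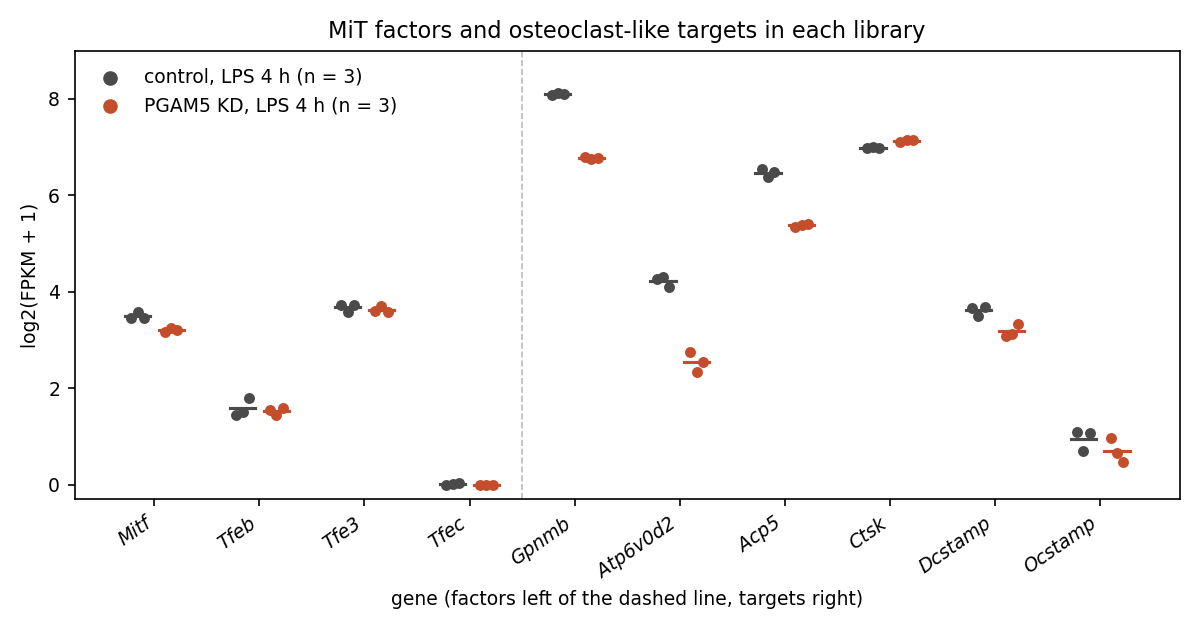
Expression of the 4 MiT factors (left of the dashed line) and 6 targets (right) as log2(FPKM + 1) in each of 3 control (grey) and 3 PGAM5 KD (red) libraries, with 1 point per library and a line at the group mean. The PGAM5 KD points of Gpnmb, Atp6v0d2, Acp5, Dcstamp and Mitf lie below all control points, those of Ctsk lie above, and those of Tfeb, Tfe3 and Ocstamp overlap with control.

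Mitf (ENSMUSG00000035158, chr6:97807052-98021349, plus strand), the master factor of melanocytes and a regulator of osteoclast genes, had 10.0, 11.1 and 10.0 FPKM in control libraries and 7.96, 8.56 and 8.22 FPKM in PGAM5 KD libraries. The lowest control library was above the highest PGAM5 KD library. The means were 10.4 ± 0.599 and 8.25 ± 0.299 FPKM (SD, n = 3 each), a log2 fold change of -0.30 (standard error 0.06), with between 963 and 1382 fragments per library. Genes that mark melanocytes did not accompany Mitf: Tyr, Tyrp1, Dct, Mlana and Sox10 were at 0 in all 6 libraries and Pmel reached at most 0.268 FPKM.

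Tfe3 (ENSMUSG00000000134, chrX:7762560-7775202, plus strand), which shares lysosomal and osteoclast targets with Mitf and Tfeb, had 12.2, 11.0 and 12.3 FPKM in control and 11.2, 12.0 and 11.1 FPKM in PGAM5 KD libraries. Its groups overlapped, with means of 11.8 ± 0.715 and 11.4 ± 0.484 FPKM (SD, n = 3 each) and a log2 fold change of -0.05 (standard error 0.06). Tfeb (ENSMUSG00000023990, chr17:47737030-47792419, plus strand), the factor best known for lysosome biogenesis, had 1.75, 1.86 and 2.49 FPKM in control and 1.93, 1.72 and 2.02 FPKM in PGAM5 KD libraries. The Tfeb groups overlapped too, and control replicate 3 was the highest library. The log2 fold change of Tfeb was -0.06 (standard error 0.12), and it was 0.04 without control replicate 3. Between 177 and 279 fragments lay behind each Tfeb value, against between 2015 and 2501 for Tfe3, so the Tfeb values carry the larger counting error.

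Tfec (ENSMUSG00000029553, chr6:16833373-16898441, minus strand), a family member described in macrophages, was close to undetected. It had 0, 1 and 3 fragments in control libraries and 0 fragments in each PGAM5 KD library, where a count of 0 allows up to 3 fragments, or between 0.0220 and 0.0295 FPKM. A difference of Tfec was not detectable at this depth, and no fold change is given.

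Because FPKM is per length, the factors can be set beside each other. Mitf made up 41.7%, 46.2% and 40.4% of the summed FPKM of the 4 factors in control libraries and 37.7%, 38.4% and 38.6% in PGAM5 KD libraries. Each PGAM5 KD share of Mitf was below each control share, with means of 38.2% ± 0.474 against 42.8% ± 3.03 (SD, n = 3 each). The change was -4.54 percentage points, and -2.83 points without control replicate 2. Tfe3 made up 48.8% ± 2.56 in control and 53.0% ± 0.947 in PGAM5 KD cells, the largest share in 5 of 6 libraries, with Mitf ahead by a small margin in control replicate 2. Tfeb held 8.37% ± 1.48 and 8.77% ± 0.924, with overlapping groups. The summed level of the factors was 24.0, 23.9 and 24.8 FPKM in control and 21.1, 22.3 and 21.3 FPKM in PGAM5 KD libraries, a shift carried mostly by Mitf.

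**Figure D2:**
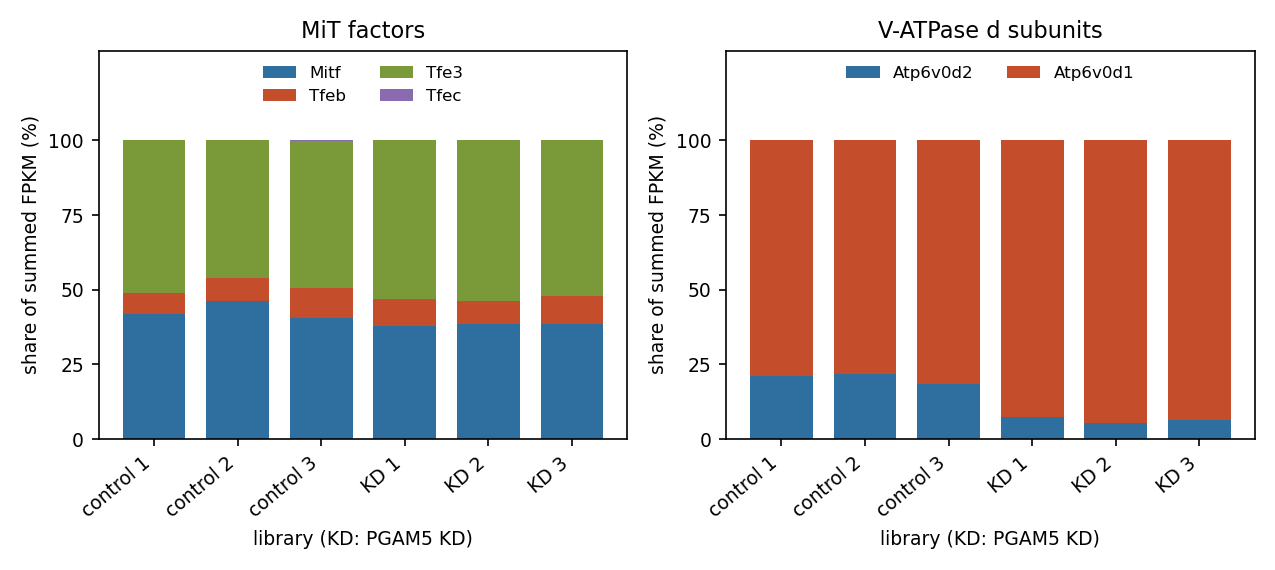
Left, share of Mitf, Tfeb, Tfe3 and Tfec in their summed FPKM (%) in each library; right, share of the V-ATPase subunits Atp6v0d2 and Atp6v0d1 in their summed FPKM (%), both as stacked bars from 0 with 1 bar per library. The Mitf share is 42.8% in control and 38.2% in PGAM5 KD cells on average, and the Atp6v0d2 share is 20.3% and 6.36%.

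The promoter sequences of the targets are shown for the motifs that MiT factors are known to bind, the E-box of lysosomal genes TCACGTG (the core of the CLEAR element) and the M-box of melanocyte genes TCATGTG, searched on both strands. Each window runs from 250 bases before to 50 bases after a RefSeq start site in GRCm38.p6, and 7 of the 10 genes had 1 or more windows, 14 in all. Those for Gpnmb and Acp5 are printed as targets with lower levels in PGAM5 KD cells, and that of Atp6v0d1, a V-ATPase subunit gene whose level did not pass the test, as a window that holds the lysosomal motif. They lie at chr6:49036268-49036567 (Gpnmb, plus strand), chr9:22130549-22130848 (Acp5, the third of 3 windows, minus strand) and chr8:105566015-105566314 (Atp6v0d1, minus strand). Capitals mark the motif matches:
Gpnmb: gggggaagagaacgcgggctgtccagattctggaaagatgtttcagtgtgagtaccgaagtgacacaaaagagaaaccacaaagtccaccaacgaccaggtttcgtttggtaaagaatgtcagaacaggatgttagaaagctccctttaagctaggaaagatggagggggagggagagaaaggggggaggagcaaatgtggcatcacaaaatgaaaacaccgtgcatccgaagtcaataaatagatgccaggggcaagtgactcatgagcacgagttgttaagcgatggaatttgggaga
Acp5: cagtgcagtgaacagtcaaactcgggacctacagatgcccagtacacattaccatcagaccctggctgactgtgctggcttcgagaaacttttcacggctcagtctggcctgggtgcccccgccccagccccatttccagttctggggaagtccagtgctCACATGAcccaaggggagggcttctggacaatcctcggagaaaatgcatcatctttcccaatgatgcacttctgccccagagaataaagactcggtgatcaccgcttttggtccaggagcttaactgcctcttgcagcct
Atp6v0d1: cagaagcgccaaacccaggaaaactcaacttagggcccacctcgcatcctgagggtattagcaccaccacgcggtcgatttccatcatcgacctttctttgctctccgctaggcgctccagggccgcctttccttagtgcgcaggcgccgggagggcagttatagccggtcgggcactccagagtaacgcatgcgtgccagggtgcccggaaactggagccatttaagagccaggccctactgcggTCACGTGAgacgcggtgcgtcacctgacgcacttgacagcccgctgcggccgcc

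The Gpnmb window held neither motif. The Acp5 window held 1 M-box on the opposite strand, 90 bases before the start site, and it was the single match among the 14 windows. In Atp6v0d1 the E-box was read on both strands in overlapping matches that begin 4 and 3 bases before the start site. Over all 32851 windows of the table, 3.77% held the E-box and 3.77% the M-box. No window was found here for Atp6v0d2, Dcstamp or Ocstamp, and with 7 of 10 genes matched no share over the genes is drawn. A match describes the letters in the window, not a bound site.

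Gpnmb (ENSMUSG00000029816, chr6:49036546-49070929, plus strand) encodes a transmembrane glycoprotein of lysosomes and phagocytes. It had 272, 279 and 276 FPKM in control libraries and 111, 107 and 109 FPKM in PGAM5 KD libraries. The libraries of each group lay within a few FPKM of each other and the groups were far apart. The control mean of 275 ± 3.46 FPKM was 2.53 times the PGAM5 KD mean of 109 ± 2.09 FPKM (SD, n = 3 each), a log2 fold change of -1.33 (standard error 0.03) resting on between 12632 and 36613 fragments per library. Among the genes tested, the mean of Gpnmb stood at percentile 98.6 in control and at percentile 95.6 in PGAM5 KD cells. It was the highest of the 10 genes in control cells and second to Ctsk in PGAM5 KD cells, without overlap to its neighbour in either order.

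Atp6v0d2 (ENSMUSG00000028238, chr4:19876841-19922605, minus strand) encodes the d2 subunit of the membrane sector of the V-ATPase, the proton pump that acidifies lysosomes and the resorption pit of osteoclasts. It had 18.2, 18.7 and 16.2 FPKM in control and 5.76, 4.07 and 4.88 FPKM in PGAM5 KD libraries. All control libraries were above all PGAM5 KD libraries. The means were 17.7 ± 1.31 and 4.90 ± 0.845 FPKM (SD, n = 3 each), a ratio of 3.61 between control and PGAM5 KD and a log2 fold change of -1.67 (standard error 0.11), the largest of the 8 genes fitted. Its percentile among the genes tested was 70.1 in control and 32.4 in PGAM5 KD cells.

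Atp6v0d1, the widely expressed isoform of the same subunit, had 68.6, 67.7 and 72.4 FPKM in control and 72.8, 72.7 and 70.8 FPKM in PGAM5 KD libraries, with overlapping groups (log2 fold change 0.05, standard error 0.04, adjusted p = 0.331 from limma). Atp6v0d2 therefore made up 20.98%, 21.7% and 18.3% of the summed FPKM of the isoforms in control libraries. In PGAM5 KD libraries it made up 7.34%, 5.31% and 6.45%, each below each control share. The means were 20.3% ± 1.77 and 6.36% ± 1.02 (SD, n = 3 each). The 2 transcripts had no stretch of at least 200 bases at 85% identity with each other or with any other gene.

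Acp5 (ENSMUSG00000001348, chr9:22126727-22135711, minus strand) encodes tartrate-resistant acid phosphatase, the classic stain for osteoclasts that macrophages express too. It had 92.9, 82.0 and 88.2 FPKM in control and 39.4, 40.9 and 41.7 FPKM in PGAM5 KD libraries. Control libraries were all above PGAM5 KD libraries, by means of 87.7 ± 5.47 and 40.7 ± 1.15 FPKM (SD, n = 3 each), a ratio of 2.16 and a log2 fold change of -1.09 (standard error 0.05). Its exons share 137 bases with a transcript on the other strand, 6530413G14Rik, which had at most 6 fragments in any library. Gpnmb, Atp6v0d2 and Acp5 were the 3 of the 10 genes with a log2 fold change beyond 1, where 1.32% of all genes tested had such a fold change together with an adjusted p-value under 0.05, and 0.531% had both and were lower.

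Ctsk (ENSMUSG00000028111, chr3:95499256-95509362, plus strand), the collagen-degrading cathepsin of osteoclasts and a known target of Mitf and Tfe3, went the other way. Control libraries had 125, 128 and 126 FPKM and PGAM5 KD libraries 137, 141 and 141 FPKM. The groups did not overlap, but the step was small, with the knockdown higher: the ratio of means was 1.11 and the log2 fold change 0.15 (standard error 0.03). Scaled to TPM, which removes a difference in summed FPKM between the groups (304393 to 304889 in control libraries, 317936 to 324298 in PGAM5 KD libraries), the log2 fold change of Ctsk was 0.07. Gpnmb, Atp6v0d2 and Acp5 kept log2 fold changes of -1.41, -1.87 and -1.18 on that scale. The added 1 also weighs less on the larger TPM values, which moves these numbers too. On FPKM with a pseudocount of 0.1, Atp6v0d2 had -1.84.

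Dcstamp and Ocstamp act in cell fusion. Dcstamp (ENSMUSG00000022303, chr15:39745930-39760938, plus strand), a membrane protein needed for the fusion of osteoclast precursors, had 11.8, 10.2 and 11.9 FPKM in control and 7.48, 7.77 and 9.10 FPKM in PGAM5 KD libraries. The groups did not overlap, although PGAM5 KD replicate 3 came close to the lowest control library. The log2 fold change of Dcstamp was -0.43 (standard error 0.09). Ocstamp (ENSMUSG00000027670, chr2:165393760-165400405, minus strand), its partner in fusion, had 1.14, 0.623 and 1.09 FPKM in control and 0.970, 0.587 and 0.381 FPKM in PGAM5 KD libraries. Its groups overlapped, its mean was under the filter, and each value rests on between 34 and 78 fragments. Its transcript also holds a stretch of up to 418 bases that resembles 196 other genes, so its fragments are uncertain, whereas none of the other 9 genes had a similar gene by the same limits.

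Set against the summed FPKM of the factors in the same library, the targets split in the same manner. Gpnmb had 11.4 ± 0.263 FPKM for each FPKM of the factors in control and 5.06 ± 0.235 in PGAM5 KD cells (SD, n = 3 each). The ratio for Acp5 was 3.62 ± 0.228 and 1.89 ± 0.0618. For Ctsk it was 5.21 ± 0.128 in control and 6.48 ± 0.156 in PGAM5 KD cells, the opposite order. The summed factors were lower in PGAM5 KD libraries, which raises each ratio there. Atp6v0d2 had mean ratios of 0.732 in control and 0.228 in PGAM5 KD cells. The Dcstamp ratios nearly touched, at 0.428 in control replicate 2 and 0.427 in PGAM5 KD replicate 3, and those of Ocstamp overlapped.

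The genes most like Gpnmb and Atp6v0d2 over the 6 libraries were sought among 9330 protein-coding genes by the root mean square difference of log2(FPKM + 1) values centred on their own mean. The measure follows the difference between the groups, and also the spread within them, and no test is attached. Because 1 is added, changes of low genes are understated, so a low gene can stand near with a larger ratio. For Gpnmb the nearest was Sema4d, a semaphorin, at 0.0522, with a mean of 37.9 FPKM in control and 13.8 FPKM in PGAM5 KD cells. Ahnak (0.0922), Ptafr, the receptor for platelet-activating factor (0.0955), Slc6a8, a creatine transporter (0.116), and Tgm2, a transglutaminase (0.126), came next. Acp5 stood at 0.139 from Gpnmb, Mitf at 0.519 and Ctsk at 0.738.

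For Atp6v0d2 the nearest genes were Rgs2, a regulator of G protein signaling (0.189), Sema4d (0.196), Tex101 (0.224), Axl, a receptor for apoptotic cell ligands (0.243), and Ptafr (0.253). Rgs2 had a mean of 13.7 FPKM in control and 3.55 FPKM in PGAM5 KD cells, Axl had 6.40 and 1.30 FPKM, and Tex101 had 4.18 and 0.341 FPKM. Axl and Tex101 are low genes whose means differed by a larger ratio than those of Atp6v0d2. Gpnmb stood at 0.209 from Atp6v0d2, between the second and the third of these genes.

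Lists of other genes of these pathways were then read from the fit across all genes, with limma's adjusted p-values. Over all 10540 genes the median log2 fold change was 0.01. Of 113 genes on 6 lists that share some members, 96 were tested, 36 fell and 11 rose in PGAM5 KD cells (37.5% lower against 14.9% of all genes tested), with a median of -0.11.

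**Figure D3:**
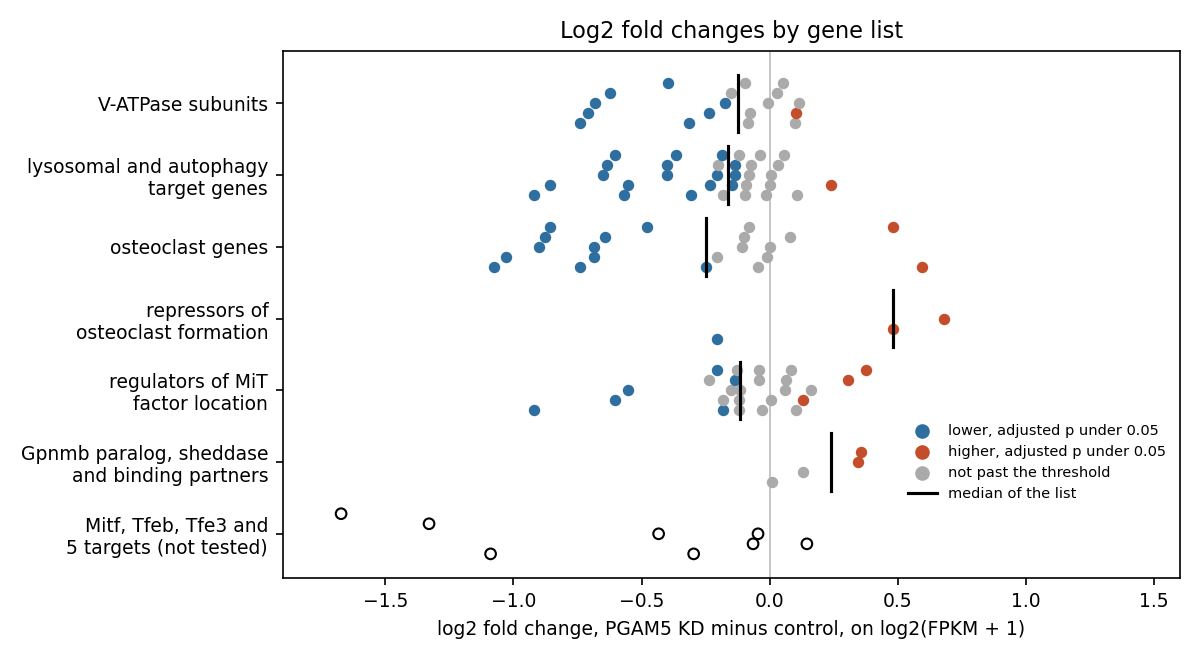
Log2 fold change (PGAM5 KD minus control, on log2(FPKM + 1)) of each tested gene on 6 lists, with 1 point per gene and a bar at the median of the list; blue and red mark adjusted p-values under 0.05, and open circles the 3 factors and 5 targets that were fitted but not tested. The medians of the V-ATPase, lysosomal and osteoclast lists are -0.12, -0.16 and -0.25. Atp6v0d2, Gpnmb and Acp5, which were chosen from this comparison, lie further to the left on this scale than any list gene. By the ratio of mean FPKM, Siglec15 of the osteoclast list fell further than Acp5 (2.47-fold against 2.16-fold).

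Of 24 V-ATPase subunit genes other than Atp6v0d2, 18 were tested, 8 fell (44.4%, against 14.9% of all genes tested), 1 rose (5.56%, against 16.8%) and 9 did not pass, with a median of -0.12. Tcirg1, the a3 subunit of the membrane sector used by osteoclasts, fell from 121 to 72.2 FPKM (log2 fold change -0.74, standard error 0.04, adjusted p = 4.14e-05 from limma). Atp6v1b2, a subunit of the ATP-hydrolysing sector, fell from 81.1 to 49.3 FPKM (-0.71, adjusted p = 5.48e-05), and Atp6ap2, an accessory subunit, fell from 87.0 to 56.1 FPKM (-0.62, adjusted p = 0.000111). Atp6v1c1 fell by less, from 43.6 to 32.9 FPKM (adjusted p = 0.000638).

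Atp6v0c, the proteolipid ring subunit, had 5.99 FPKM in control and 3.35 FPKM in PGAM5 KD cells (adjusted p = 0.00309), but its value is uncertain. A processed copy, Atp6v0c-ps2, which is 99.8% identical over 465 bases, held up to 5490 fragments in a library, against at least 201 on Atp6v0c, and the ratio of PGAM5 KD to control over the gene and its copies together was 0.792. The single gene that rose, Atp6v1f, moved by 0.10 on the log2 scale (adjusted p = 0.0471) and lost its call under 10 alternative settings, among them leaving out any library but PGAM5 KD replicate 1. Atp6v0a4 and Atp6v1b1, subunits known from the kidney, were at 0 in all 6 libraries.

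Of 35 lysosomal and autophagy genes known as targets of MiT factors, 32 were tested, 17 fell (53.1%, against 14.9% of all genes tested) and 1 rose (against 16.8%), with a median of -0.16. Fnip2, a partner of folliculin, fell from 57.6 to 30.0 FPKM (log2 fold change -0.92, standard error 0.04, adjusted p = 2.05e-05 from limma). Clcn7, the lysosomal chloride-proton exchanger that osteoclasts also need, fell from 17.0 to 8.97 FPKM (-0.86, adjusted p = 0.000359). Sqstm1, the autophagy receptor p62, fell from 271 to 172 FPKM (-0.65, adjusted p = 2.54e-05).

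The lysosomal list was not uniform. Lamp1, the abundant lysosomal membrane protein, was at 283 FPKM in control and 269 FPKM in PGAM5 KD cells and did not pass (adjusted p = 0.0565), nor did Cd63 (adjusted p = 0.99). Mcoln1, the lysosomal calcium channel, fell from 5.19 to 4.38 FPKM (adjusted p = 0.0353), a call lost under 8 alternative settings. Glb1, beta-galactosidase, rose from 12.0 to 14.3 FPKM (adjusted p = 0.0131), and this call was lost after scaling to TPM (adjusted p = 0.0608).

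RefSeq windows were matched for 29 of the 35 lysosomal genes, and 12 of these (41.4%) held the E-box TCACGTG, against 4.29% of the 27025 genes in the table and 7.53% of the genes tested that have a window. These genes are known for that element, so the share describes the list. Among tested genes, 7 of 12 with the E-box fell and 1 rose (median -0.19), and 7 of 14 without it fell and 0 rose (median -0.13). Whether the motif bears on the change was not tested.

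Of 25 osteoclast genes other than the targets above, 21 were tested, 11 fell (52.4%, against 14.9% of all genes tested) and 2 rose (9.52%, against 16.8%), with a median of -0.25. On the log2(FPKM + 1) scale the largest change was that of Nfatc1, the transcription factor that acts with MITF on osteoclast genes, while by the ratio of mean FPKM Siglec15 fell further (2.47-fold, against 2.15-fold for Nfatc1). Nfatc1 had 60.6, 59.4 and 62.4 FPKM in control and 27.6, 29.2 and 28.1 FPKM in PGAM5 KD libraries (log2 fold change -1.08, standard error 0.04, adjusted p = 1.32e-05 from limma). Its groups did not overlap.

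Plekhm1, an adaptor for the fusion of vesicles with lysosomes, fell from 37.3 to 17.8 FPKM (-1.03, adjusted p = 1.57e-05), Fos from 32.8 to 17.4 FPKM (-0.88, adjusted p = 4.74e-05), and Siglec15, a sialic acid receptor of osteoclasts, from 3.25 to 1.31 FPKM (-0.90, adjusted p = 0.0118). Tnfrsf11a, the receptor RANK, fell from 22.0 to 18.3 FPKM (-0.25, adjusted p = 0.0036). Csf1r, the receptor for M-CSF and also a macrophage marker, fell from 231 to 148 FPKM (-0.64, adjusted p = 4.71e-05). Its exons overlap those of Hmgxb3 on the other strand by 873 bases.

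The list genes that rose were Car2 and Mmp9. Car2, the carbonic anhydrase that supplies protons, rose from 520 to 726 FPKM (0.48, adjusted p = 0.000133), and the matrix metalloproteinase Mmp9 rose from 10.9 to 17.0 FPKM (0.59, adjusted p = 0.000313). Across the alternative settings the log2 fold change of Car2 was as low as 0.24, with its call kept. Levels of the osteoclast genes ranged widely. Calcr, the calcitonin receptor, was at 0 in all 6 libraries, Itgb3 had means of 0.014 and 0.010 FPKM, and Oscar had 0.292 and 0.150 FPKM.

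**Figure D4:**
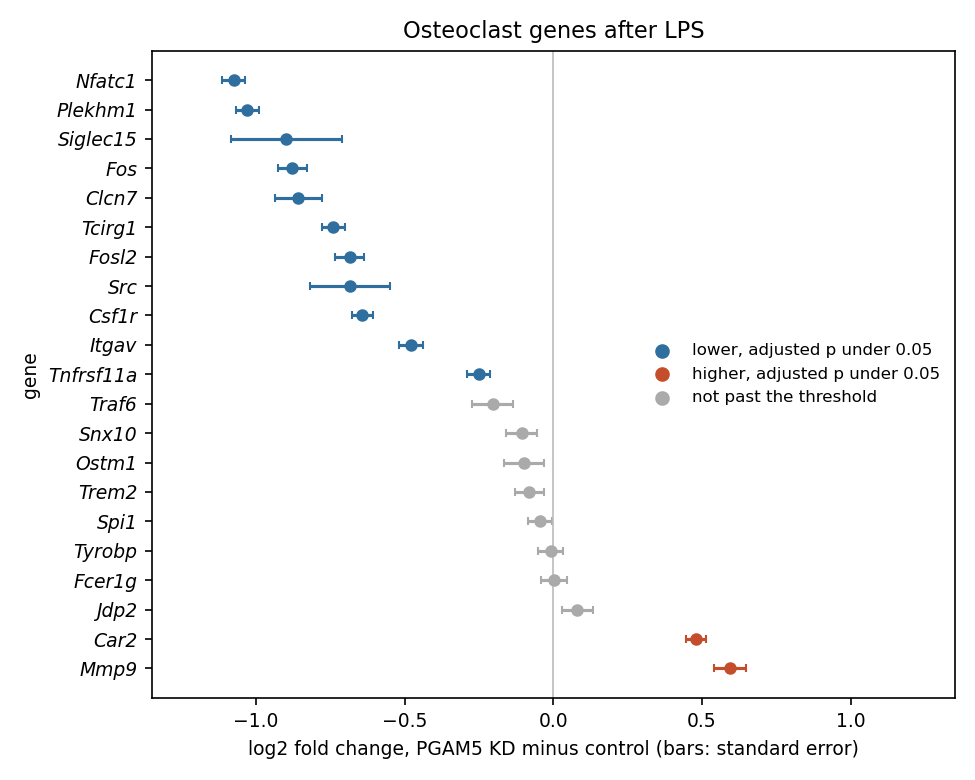
Log2 fold change (PGAM5 KD minus control, on log2(FPKM + 1)) of the 21 osteoclast genes tested, ordered by size, with bars for the standard error of the fit. Nfatc1 and Plekhm1 lie beyond -1, 11 genes fell (blue), Car2 and Mmp9 rose (red) and 8 did not pass (grey).

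Macrophage markers moved between the groups beside these genes. Adgre1 (F4/80) rose from 7.93 to 15.1 FPKM (adjusted p = 9.68e-05 from limma), Fcgr1 (CD64) from 4.34 to 14.1 FPKM (adjusted p = 0.000221) and Itgam (CD11b) from 2.41 to 4.46 FPKM (adjusted p = 0.00322). Lyz2 fell from 1666 to 1265 FPKM (adjusted p = 0.000114) and Cd68 from 468 to 406 FPKM (adjusted p = 0.0011), as did Csf1r above, while Ptprc did not pass (adjusted p = 0.564). Summed over the 9 markers, control libraries had 2359 to 2436 FPKM and PGAM5 KD libraries 1840 to 1879 FPKM, a sum that is mostly Lyz2. Of 6 osteoblast markers, Ibsp was at 0 and Alpl, alkaline phosphatase, was between 1.08 and 1.27 FPKM in control libraries and listed at 0 in PGAM5 KD libraries, which set the sum of that list (between 1.21 and 1.38 against between 0.123 and 0.173 FPKM). Fibroblast, neutrophil and lymphocyte markers reached at most 0.0168, 0.328 and 0.211 FPKM, with Col1a2, Elane and Cd3e at 0. The part of the macrophage markers in the results for the targets was not tested.

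Of 5 repressors of osteoclast formation, 3 were tested, 2 rose and 1 fell, where 16.8% of all genes tested rose and 14.9% fell, and with 3 genes nothing is read from the count. Irf8, a factor that opposes Nfatc1, rose from 4.82 to 8.33 FPKM (log2 fold change 0.68, standard error 0.08, adjusted p = 0.000883 from limma), and Id2, an inhibitor of helix-loop-helix factors, rose from 17.2 to 24.4 FPKM (0.48, adjusted p = 0.000429). Bcl6 fell from 10.5 to 8.98 FPKM (adjusted p = 0.019), a call lost without control replicate 1, control replicate 2 or PGAM5 KD replicate 3.

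Among 27 regulators of where MiT factors reside, 25 were tested, 6 fell (24%, against 14.9% of all genes tested) and 3 rose (12%, against 16.8%), with a median of -0.12. The folliculin complex, which licenses the phosphorylation of TFEB and TFE3 through the Rag GTPases, fell in all 3 of its genes: besides Fnip2, Flcn fell from 16.0 to 10.2 FPKM (log2 fold change -0.60, standard error 0.04, adjusted p = 0.000153 from limma) and Fnip1 from 11.5 to 7.51 FPKM (-0.55, adjusted p = 0.00195). These genes, and also Rragc and Mcoln1, are known as targets of MiT factors too and stand on the lysosomal list. Of the regulators that fell, Rptor alone was not on that list (-0.18, adjusted p = 0.0321), and its call was lost under 7 alternative settings. The share of regulators that fell therefore mostly repeats the lysosomal list. Rraga, a Rag GTPase, rose from 48.8 to 60.7 FPKM (0.31, adjusted p = 0.000979), Rragc fell (-0.13, adjusted p = 0.0326), and Rragd was at 0 in all 6 libraries. Lamtor4 rose (0.38, adjusted p = 0.0291), and Mtor, the kinase itself, did not pass (-0.13, adjusted p = 0.0844). Rragc lost its call under 6 alternative settings and Lamtor4 under 7. With 1 library left out, 3 regulators fell without control replicate 1 or any of the PGAM5 KD replicates and 4 without control replicate 2 or 3, while 1 rose without control replicate 2, control replicate 3 or PGAM5 KD replicate 3 and 2 without the others.

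Of the GPNMB paralog, a sheddase and 3 binding partners, 5 genes in all, 4 were tested, 2 rose and 0 fell, where 16.8% of all genes tested rose and 14.9% fell, and with 4 genes nothing is read from the count. Sdc4, a heparan sulfate proteoglycan that binds GPNMB, rose from 113 to 145 FPKM (log2 fold change 0.36, standard error 0.03, adjusted p = 0.000227 from limma), and Adam10, a protease that sheds its ectodomain, rose from 43.0 to 54.8 FPKM (0.34, adjusted p = 0.00148). Cd44 (adjusted p = 0.896) and Itgb1 (adjusted p = 0.0847) did not pass. Pgam5 and the list genes past the threshold, 48 genes in all, kept their direction under each alternative that held them, and 38 kept an adjusted p-value under 0.05 throughout.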

How the data were processed

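The authors deposited FPKM per Ensembl gene, 1 table per library. The submitters' processing notes name HISAT2 2.0.5, featureCounts 1.5.0-p3 and the mm10 build. The libraries are described as either directional or non-directional, so overlapping genes on opposite strands are uncertain. Names, coordinates and exon lengths came from GENCODE M21 (GRCm38), which held 54495 gene identifiers and not 37 others. The product of FPKM and exon length was a whole number of fragments, to within 0.01, for 96.8% to 97.1% of values under 1000, which gave the depth. Replicates of a group differed by more than sampling noise (chi-square over degrees of freedom between 5.06 and 8.97).

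From these values log2(FPKM + 1), a scale that understates changes of low genes, was fitted with limma 3.58.1 in R 4.3.3 (lmFit, eBayes with a trend, two-sided, Benjamini-Hochberg) where FPKM averaged at least 1. Genes passed at an adjusted p-value under 0.05 and were differentially expressed if the absolute log2 fold change also exceeded 1, the limits of the study's methods. With 3 libraries against 3 an exact permutation test cannot go below p = 0.1, so none is given. The fit was tested on simulated data. No count model served as the main test, since the unit is FPKM.

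The genes described and the lists were chosen with earlier results of these data known. List genes were named if among at most 5 past the threshold by size of change, beside Atp6v0d1, Tcirg1, Nfatc1, Tnfrsf11a, Irf8, Flcn, Rragd, Mcoln1 and Csf1r; for Gpnmb and Atp6v0d2 the 5 nearest genes were named, and marker genes where their list is described. Atp6v0a4, Atp6v1b1, Atp6v1f, Lamp1, Cd63, Glb1, Car2, Mmp9, Calcr, Itgb3, Oscar, Rragc, Rptor, Mtor, Cd44 and Itgb1 were named after their values were seen. Some genes that this rule takes are not reported here. Similar genes were found with blastn 2.17.0 (at least 85% identity over 200 bases). Alternatives were a pseudocount of 0.1, no filter, a mean FPKM of at least 5, TPM scaling, quantile normalization, a replicate block, each library left out, and voom on recovered fragments. Tables and figures used Python 3.11.15, pandas 2.3.3 and matplotlib 3.10.9.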

Additional observations from a re-analysis of the deposited data

How the results depend on the processing

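Of 338 values of 27 results under the alternatives, 293 stayed within the tolerance set for them (a count within 1.5 times, a value within 1 SD between replicates, the same call for Pgam5), 45 moved and 0 turned from a called direction to the other. Limits: 3 libraries per group, 1 cell line, no untreated cells and unknown culture replication. Low genes (Tfec, Ocstamp, Tfeb) are limited by their fragments, and FPKM carries no scaling between libraries beyond depth. The cause of the shifts was not tested.

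Scaling to TPM left 12631 genes with a mean of at least 1 TPM (10540 reported at 1 FPKM), a looser filter here. It gave 1083 genes higher (1771 reported), 32.3% of calls against 52.9%, and a median over these genes of -0.07 (0.01 reported). The gene set and the weight of the added 1 therefore differ as well as the scale. On TPM the log2 fold changes were -0.39 for Mitf, -0.12 for Tfe3, -1.41 for Gpnmb, -1.87 for Atp6v0d2, -1.18 for Acp5 and 0.067 for Ctsk. Quantile normalization gave -1.42 for Gpnmb and 0.058 for Ctsk. Atp6v0d2 had -1.84 with a pseudocount of 0.1 and -1.85 with voom, and its share of d subunit fragments fell by 18.5 percentage points (13.95 by FPKM). Differentially expressed genes, 83 higher and 56 lower as reported, were 154 and 107 with a pseudocount of 0.1, 49 and 27 at a mean FPKM of at least 5, 149 and 176 on TPM, and 164 and 105 with voom. The 1 V-ATPase gene that rose became 0 with no filter, TPM, quantile normalization, the replicate block and voom. The 1 lysosomal gene that rose became 2 with no filter and 0 on TPM. Of the regulators, 1 rose on TPM.

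Same-numbered libraries did not deviate together (correlations -0.0197, 0.0161 and -0.0516), so the numbers do not pair them. With the replicate block 1440 genes were higher and 1212 lower, and 1 regulator rose and 3 fell. None of the 6 libraries correlated best with its own number.

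Leaving out each library in turn gave 1211 to 1484 genes higher and 1128 to 1359 lower, 79 to 97 differentially expressed higher and 54 to 59 lower, 0 to 1 V-ATPase genes that rose and 7 to 8 that fell, 14 to 15 lysosomal genes that fell, 1 to 2 regulators that rose and 3 to 4 that fell, and 0 to 1 repressors that fell. The log2 fold changes ranged from -0.32 to -0.25 for Mitf, from -0.13 to 0.04 for Tfeb, from -0.09 to -0.02 for Tfe3, from -1.78 to -1.57 for Atp6v0d2, from -1.34 to -1.31 for Gpnmb, from -1.14 to -1.05 for Acp5, from 0.14 to 0.16 for Ctsk and from -0.51 to -0.38 for Dcstamp, and the change in the Mitf share from -5.72 to -2.83 percentage points.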
